A study of Drosophila melanogaster with 17 samples.

Results

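The UDP-glycosyltransferase (Ugt) family of Drosophila melanogaster was followed in larval eye discs that lacked Dp or posterior E2f1 and in wild type discs, with and without gamma radiation. Members were all genes whose symbol starts with Ugt and a digit and that have a probe set annotated to them alone on the Affymetrix Drosophila Genome 2.0 array. There were 35 of them among 11982 genes measured this way, each with 1 probe set, and they were all 35 genes with such a symbol in the RefSeq annotation of this species. The rule reads gene symbols and no measured value.

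Discs came from larvae of the third instar and fell into 6 groups. Wild type discs were untreated (3 arrays) or irradiated (2 arrays, numbers 1 and 3, with number 2 not analysed here). dDP mutant discs were untreated (3) or irradiated (3), and so were discs of the genotype called de2f1, in which e2f1 was deleted in the posterior (3 and 3). Irradiated larvae received 40 Gy of gamma radiation and their discs were taken 4 h later. The alleles and the driver of the posterior deletion are not given in the sources used here, and cells outside the posterior of de2f1 discs kept the gene according to that description. E2F transcription factors bind DNA together with the Dp protein.

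Ugt enzymes sit in the membrane of the endoplasmic reticulum and transfer a sugar from a UDP-sugar onto small lipophilic molecules, which makes these more soluble and easier to export. Insect members mostly use UDP-glucose, and their substrates include plant toxins, insecticides, pigment and cuticle precursors and odorants. They act beside cytochrome P450 enzymes and glutathione transferases in detoxification, and membrane transporters then carry the conjugates out of the cell. In adult and larval flies the family is best known from the fat body, gut, Malpighian tubule and antenna.

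Values are log2 summaries per probe set. They compare a gene with itself between groups and were not set against each other between genes. Array medians lay between 5.80 and 5.97. Of the eye disc markers, all 11 were measured (ey, toy, so, eya, dac, ato, gl, elav, chp, ro and sev), and their mean was 10.36 to 10.71 over the 17 arrays. Single markers moved in opposite directions under this mean. In untreated wild type, de2f1 and dDP discs chp had group means of 9.79, 10.23 and 10.89, and ato 10.52, 10.54 and 10.08. Signals of other tissues differed between arrays. The mean of the 6 salivary glue genes was 5.29, 6.05 and 5.54 in untreated dDP discs, 5.97 on dDP irradiated array 1, 6.51 on de2f1 untreated array 1 and 10.85 to 13.91 on the other 12 arrays. The 3 fat body genes measured (Lsp2, Fbp1 and Fbp2) ranged in their mean from 5.99 to 13.42, with the top on dDP untreated array 1. The 4 gut enzyme genes measured (alphaTry, betaTry, Jon65Aiii and Jon65Aiv) averaged 11.30 on dDP untreated array 1 and 10.56 on dDP irradiated array 2, against 5.05 to 6.02 on the other 15 arrays. Actin control probes differed by 3.05 and 3.26 between the 3-prime and 5-prime end on dDP untreated arrays 2 and 3, and by 1.69 to 2.28 elsewhere.

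Many family members gave little signal in these discs. In 13 of the 35 genes the mean of each of the 6 groups was below log2 4.6, a level close to the lower quartile of the arrays (4.51 to 4.6) that is called the floor here. These were Ugt303A1, Ugt303B1, Ugt303B2, Ugt303B3, Ugt307A1, Ugt35B1, Ugt35D1, Ugt35E1, Ugt35E2, Ugt37A2, Ugt37C1, Ugt37E1 and Ugt49C1. They made up 37.1% of the family, against 21.9% of all 18769 probe sets tested. A further 5 genes (Ugt302E1, Ugt304A1, Ugt35C1, Ugt37A3 and Ugt49B2) had some group means below and some above the floor, and 17 stayed at or above it in all 6 groups. A difference from a group below the floor is a lower bound.

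In wild type discs Ugt302K1 and Ugt302C1 rose after irradiation and Ugt317A1 fell, and a small rise of Ugt303A1 below the floor also passed. Ugt302K1 (formerly Ugt86Di) read 9.72, 9.62 and 9.63 on the 3 untreated and 11.77 and 11.86 on the 2 irradiated wild type arrays. Ugt302C1 (formerly Ugt86Da) read 10.09, 10.03 and 10.08 untreated and 11.26 and 11.46 irradiated. For both genes the irradiated arrays lay far above the untreated ones, with no overlap. The change was 2.16 ± 0.10 (SE) on the log2 scale for Ugt302K1, or 4.47-fold, and 1.30 ± 0.09 for Ugt302C1, or 2.46-fold (limma with Benjamini-Hochberg adjustment, adjusted p = 3.03e-08 and 1.07e-06, 2 arrays against 3). Among all 18769 tested probe sets, Ugt302K1 had the 16th largest rise in wild type discs. Over the family, 3 of 35 genes passed as higher and 1 as lower, or 11.4% in all, beside 2.59% of all probe sets called higher and 1.92% called lower (4.51% in all). The median change was 0.02 over the family and -0.003 over all tested probe sets.

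**Figure D1:**
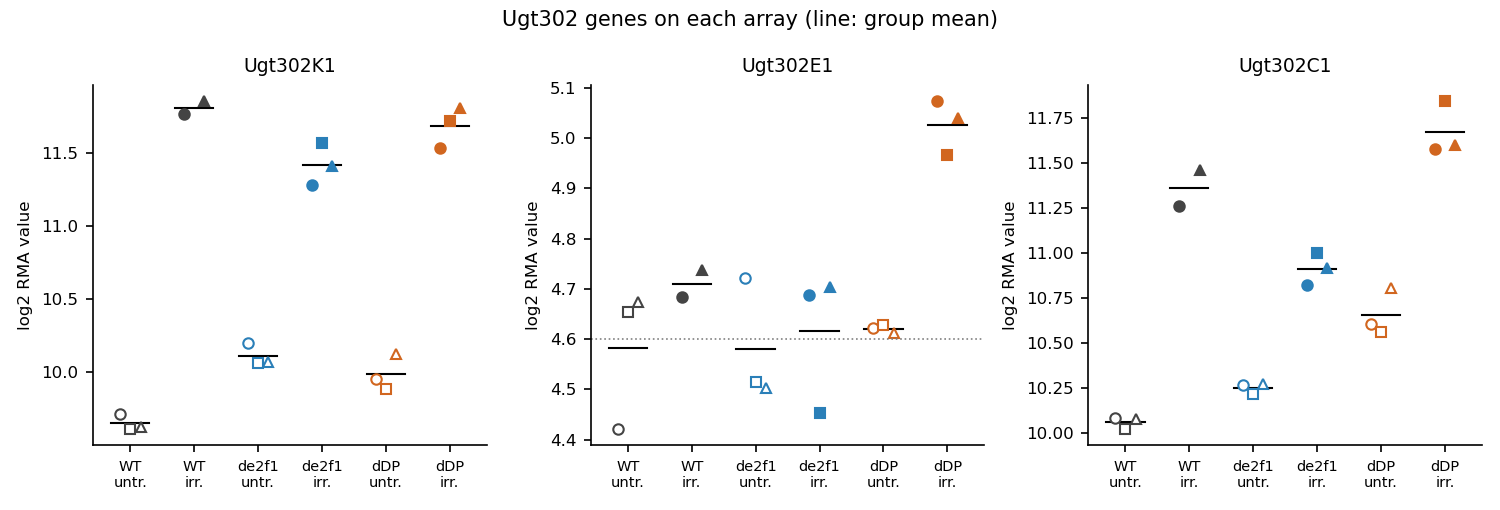
Log2 values of Ugt302K1, Ugt302E1 and Ugt302C1 on each of the 17 arrays, by genotype (WT, wild type) and treatment. Open symbols are untreated and filled ones irradiated arrays, circles, squares and triangles mark sample numbers 1, 2 and 3, lines mark group means, and the dotted line is log2 4.6. Ugt302K1 and Ugt302C1 are higher on every irradiated than on every untreated array of the same genotype, and Ugt302E1 stands clear of the other groups in irradiated dDP discs, at 4.97 to 5.07.

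The same pair rose in both mutants. In de2f1 discs Ugt302K1 went from 10.20, 10.06 and 10.07 to 11.28, 11.57 and 11.41, and Ugt302C1 from 10.27, 10.21 and 10.27 to 10.82, 11.003 and 10.92. The rises were 1.31 ± 0.09 and 0.66 ± 0.08 (limma adjusted p = 1.28e-06 and 3.20e-04, n = 3 against 3). In dDP discs Ugt302K1 read 9.95, 9.88 and 10.12 untreated and 11.53, 11.72 and 11.81 irradiated, and Ugt302C1 read 10.61, 10.56 and 10.80 and then 11.58, 11.85 and 11.60. There the rises were 1.70 ± 0.09 and 1.02 ± 0.08 (adjusted p = 1.53e-07 and 4.39e-06, n = 3 against 3). Untreated and irradiated arrays did not overlap for either gene in either mutant. These 6 rises passed under each of the 29 alternative settings, including every left-out array. In de2f1 discs 2 of 35 family members passed as higher and 1 as lower, beside 1.37% and 0.927% of all probe sets (2.3% in all). In dDP discs 3 passed as higher and 1 as lower, beside 4.45% and 4.38% (8.84% in all).

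The size of the rise differed between genotypes in 1 of the tests for these genes. The Ugt302K1 rise was smaller in de2f1 than in wild type discs, with a log2 difference of -0.85 ± 0.13 (limma adjusted p = 0.0396, 95% interval -1.13 to -0.56). Part of this difference lay in the untreated level, with group means of 10.11 in de2f1 and 9.65 in wild type discs. Irradiated group means were 11.42 and 11.81. This contrast called 2 family members, both lower, and 0.0533% of all probe sets in all. The call was lost in 11 of the 17 fits that left out an array, with adjusted p of 0.0545 to 0.349, and with the other alternatives added its adjusted p ran from 0.00781 to 0.349. The difference itself lay between -0.92 and -0.78 in those 17 fits. The highest p of the 17 came when wild type irradiated array 3 was left out (-0.80). For Ugt302C1 the de2f1 rise differed from that of wild type by -0.64 ± 0.12, which did not pass (adjusted p = 0.137, interval -0.90 to -0.37) except with array weights (0.0229) and when both dDP arrays with gut enzyme signal were left out (0.0468, over its alternatives 0.0229 to 1).

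The dDP rise was not shown to differ from the wild type rise. For Ugt302K1 the difference was -0.46 ± 0.13 (adjusted p = 0.276, interval -0.74 to -0.17) and for Ugt302C1 -0.28 ± 0.12 (adjusted p = 0.513, interval -0.55 to -0.01). No member passed in that comparison (7 at an unadjusted p under 0.05), where 0.112% of all probe sets were called higher and 0.0906% lower (0.202% in all). Between dDP and de2f1 discs the rises differed by 0.39 ± 0.12 for Ugt302K1 and 0.35 ± 0.12 for Ugt302C1 (adjusted p = 0.318 and 0.332). There too no member passed (limma, 4 at an unadjusted p under 0.05), beside 0.0639% of all probe sets called higher and 0.0533% lower (0.117% in all), although both genes passed with array weights (0.0338 and 0.0495, over their alternatives 0.0338 to 0.562 and 0.0495 to 0.567).

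Ugt302K1, Ugt302E1 and Ugt302C1 are immediate neighbours on chromosome arm 3R in the RefSeq gene order (assembly Release 6 plus ISO1 MT). They belong to the largest Ugt cluster, of 10 members in the order Ugt35C1, Ugt302K1, Ugt302E1, Ugt302C1, Ugt35E1, Ugt35E2, Ugt35B1, Ugt35A1, Ugt304A1 and Ugt303A1. The 3 other genes among them in that table are mAcon2, CheA86a and CG4757. Ugt35C1 (formerly Ugt86Dd) at the end of the row has been linked to nicotine resistance of larvae. Array probes for that gene stayed at 4.31 to 4.83 on all arrays, and it passed in none of the 9 contrasts. Ugt302E1, which lies between the pair that rose, was near the floor in most groups and passed in dDP discs alone. It read 4.62, 4.63 and 4.61 in untreated and 5.07, 4.97 and 5.04 in irradiated dDP discs, a change of 0.41 ± 0.08 (limma adjusted p = 0.007, n = 3 against 3). In wild type discs it read 4.42, 4.65 and 4.67 and then 4.68 and 4.74, and in de2f1 discs 4.72, 4.51 and 4.50 and then 4.69, 4.45 and 4.70. The treatments overlapped in de2f1 discs and lay next to each other in wild type discs, all around the floor. The dDP change of Ugt302E1 was not shown to differ from that of wild type (0.28 ± 0.12, adjusted p = 0.514, interval 0.01 to 0.54). Its call was lost with the actin difference as a covariate (0.0534) and without dDP untreated arrays 2 and 3 together (0.0968, over its alternatives 0.00369 to 0.0968).

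**Figure D2:**
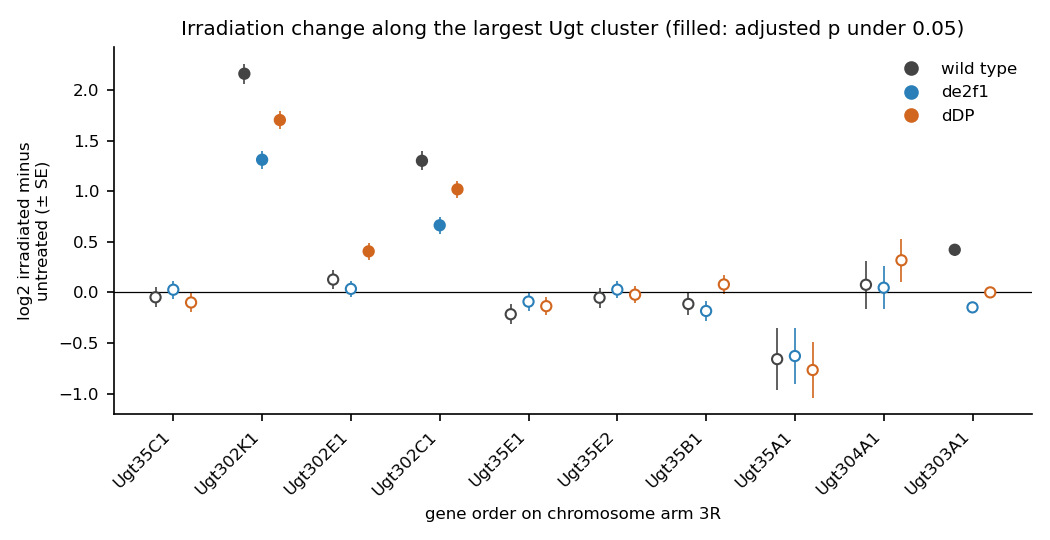
Irradiation change (log2 irradiated minus untreated, ± SE) of the 10 Ugt genes of the largest cluster in their order on arm 3R, in wild type, de2f1 and dDP discs. Filled points have an adjusted p under 0.05. The changes of Ugt302K1 and Ugt302C1 pass in all 3 genotypes, while Ugt302E1 between them passes in dDP discs (0.41).

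Ugt303A1, at the far end of this cluster, passed in wild type but not in mutant discs, with every group mean below the floor. It read 3.78, 3.87 and 3.93 on untreated and 4.30 and 4.27 on irradiated wild type arrays, a difference of 0.42 ± 0.06 (limma adjusted p = 5.75e-04). All arrays of both mutants lay at 3.52 to 3.80. The irradiation change in de2f1 discs was -0.15, and its difference from wild type passed (-0.57 ± 0.08, adjusted p = 0.0223, interval -0.74 to -0.40). No fold is given, since all 6 group means were below log2 4.6. That difference missed the threshold without wild type untreated array 1 or 2, wild type irradiated array 1 or 3, de2f1 untreated array 1 or 3 or de2f1 irradiated array 2 or 3 (adjusted p = 0.0611 to 0.175, over its alternatives 0.00836 to 0.175). The corresponding difference for dDP, -0.42 ± 0.08, had an adjusted p of 0.0613 and passed under 8 alternatives, among them those without dDP untreated array 1 (0.0198), de2f1 untreated array 3 (0.0487) or de2f1 irradiated array 1 (0.0486, over its alternatives 0.0198 to 0.245).

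Ugt317A1 (formerly Ugt58Fa) was the member called lower after irradiation in all 3 genotypes. In wild type discs it read 9.71, 9.49 and 9.55 untreated and 9.003 and 8.92 irradiated. In de2f1 discs it read 9.11, 9.11 and 9.13 and then 8.60, 8.76 and 8.54, and in dDP discs 9.15, 9.22 and 9.13 and then 8.84, 8.48 and 8.90. Irradiated arrays lay below all untreated arrays of their genotype each time. The changes were -0.62 ± 0.11, -0.48 ± 0.10 and -0.43 ± 0.10 (limma adjusted p = 0.00277, 0.0145 and 0.0126), and neither mutant's change differed from that of wild type by the test (0.19 for dDP and 0.15 for de2f1, adjusted p = 0.683 and 1.00). These calls hung on single arrays: the wild type call was lost without irradiated array 3 (0.0555), the de2f1 call without untreated array 1 or 3 or irradiated array 1 or 3 (0.0553 to 0.0838) and the dDP call without untreated array 2 (0.0559). The dDP call was also lost with the salivary gene mean or the actin difference as a covariate (0.104 and 0.0682), with the 6 dDP arrays fitted alone (0.179) and without dDP untreated arrays 2 and 3 together (0.155). Adjusted p ran from 1.93e-04 to 0.0555, 0.00122 to 0.0838 and 0.00571 to 0.179 over the alternatives of the 3 genotypes.

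Ugt35A1 read lower on every irradiated than on every untreated array of its genotype but did not pass. It read 6.04, 6.20 and 6.35 and then 5.29 and 5.79 in wild type, 6.32, 6.08 and 7.24 and then 5.88, 6.07 and 5.80 in de2f1, and 8.86, 8.81 and 8.92 and then 7.76, 8.69 and 7.85 in dDP discs. The changes were -0.66 ± 0.30, -0.63 ± 0.27 and -0.77 ± 0.27 (limma adjusted p = 0.348, 0.385 and 0.103). The wild type change was -0.41 without irradiated array 1 (adjusted p of 0.144 to 0.776 over its alternatives), and the de2f1 change was -0.28 without untreated array 3 (adjusted p of 0.149 to 0.762). Among the irradiated dDP arrays, number 2, with the gut enzyme signal, stood highest for this gene. On the other array with that signal, dDP untreated array 1, Ugt35A1 read 8.86, between the 8.81 and 8.92 of untreated arrays 2 and 3. The part of gut tissue was not tested. The dDP change passed without irradiated array 2 (-1.06, adjusted p = 0.0308), without it and untreated array 1 together (-1.06, 0.0257), without de2f1 untreated array 3 (0.0376) and with weighted arrays (0.0358). Adjusted p of this change ran from 0.0257 to 0.446 over the alternatives.

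**Figure D3:**
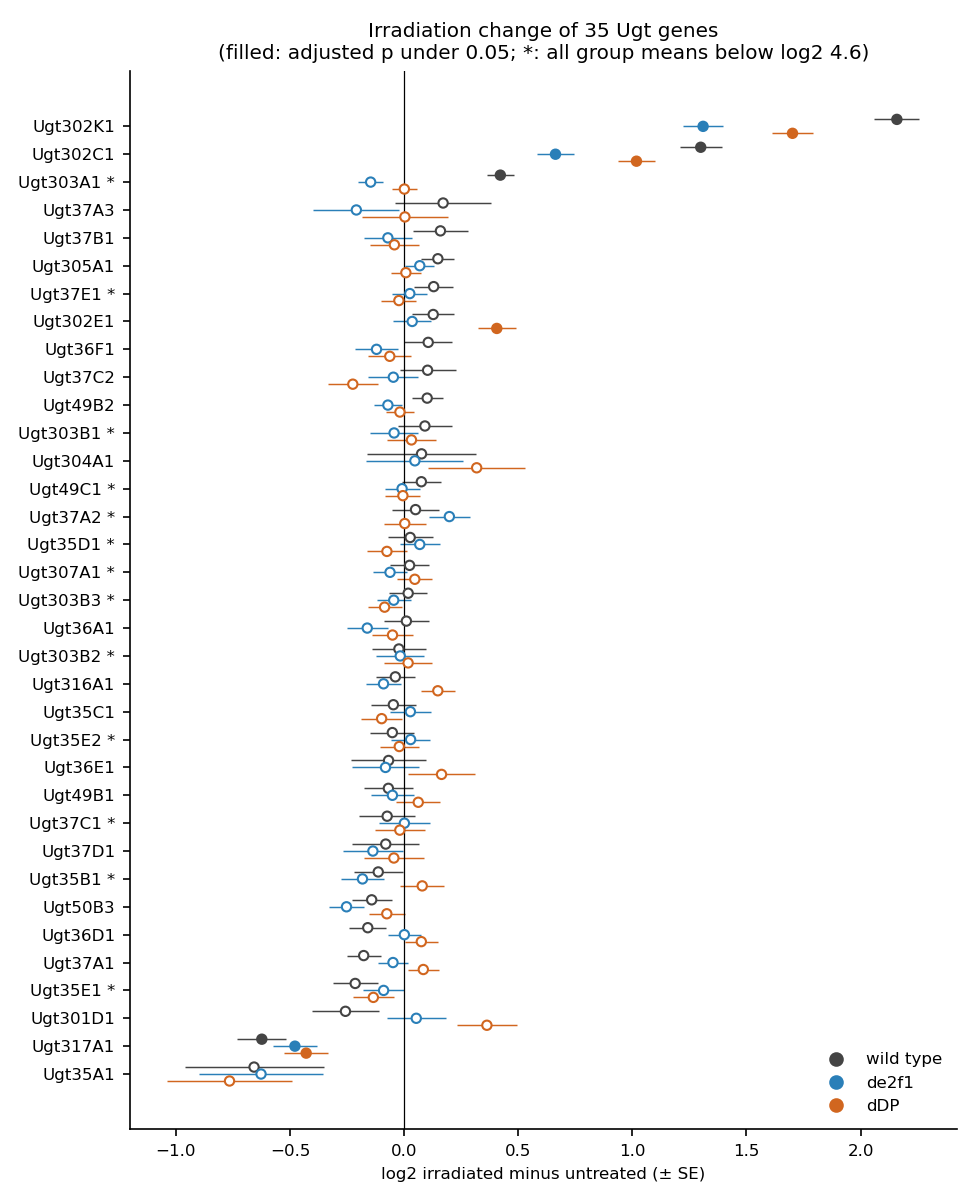
Irradiation change (log2 irradiated minus untreated, ± SE) of all 35 Ugt genes in wild type, de2f1 and dDP discs, ordered by the wild type value. Filled points have an adjusted p under 0.05, and an asterisk marks the 13 genes with all group means below log2 4.6. Most genes lie near 0, with Ugt302K1 and Ugt302C1 on the right and Ugt317A1 and Ugt35A1 on the left in each genotype.

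Of the 35 genes, 19 passed in none of the 9 contrasts of irradiation and genotype, and 12 of these 19 were below the floor in all groups, 3 in some and 4 in none (Ugt36F1, Ugt37B1, Ugt37C2 and Ugt49B1). Their irradiation changes lay between -0.22 and 0.20 in the 3 genotypes, and their values over all 9 contrasts between -0.38 and 0.45, with a smallest adjusted p of 0.0501 (limma). The top value was that of Ugt37A3 in untreated de2f1 against wild type discs (0.45, adjusted p = 0.191), which passed with array weights (0.0308) or the actin covariate (0.0411, over its alternatives 0.0308 to 0.414). Ugt49B1 ranged from 5.98 to 6.35 over all arrays. Across all contrasts, 16 of the 35 genes passed at least once, beside 37.8% of all probe sets, and 13 of the 16 were at or above the floor in every group.

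Other steps of the same detoxification route were listed by gene symbol. In wild type discs 3 of 81 cytochrome P450 genes rose and 4 fell, with a median change of -0.002, beside 2.59% and 1.92% of all probe sets. Cyp6d2 rose by 2.09 ± 0.14, Cyp6a17 by 1.32 ± 0.14 and Cyp6d4 by 0.56 ± 0.08 (limma adjusted p = 5.74e-07, 3.21e-05 and 5.22e-04). Cyp6d2 also rose in de2f1 (1.66 ± 0.12) and dDP discs (2.09 ± 0.12). Cyp6a17 rose in de2f1 discs too (1.62 ± 0.12, limma adjusted p = 3.86e-06), and Cyp6d4 in dDP discs (0.67 ± 0.07, 4.73e-05). The lowest group mean of Cyp6a17, 4.32, was below the floor. Of the P450 list 3 rose and 2 fell in de2f1 and 6 rose and 5 fell in dDP discs, with medians of -0.02 and -0.09, beside 1.37% and 0.927% of all probe sets in de2f1 and 4.45% and 4.38% in dDP discs. Among 34 glutathione transferase genes 5 rose and 1 fell in wild type, 2 rose and 1 fell in de2f1, and 5 rose and 6 fell in dDP discs, with medians of 0.12, 0.07 and 0.19. All probe sets called in either direction were 4.51%, 2.3% and 8.84% in the same order. The medians over all tested probe sets were -0.003, -0.01 and -0.03 in the 3 genotypes. The 3 with the smallest adjusted p in wild type discs were GstD1, GstT1 and GstT3. GstT1 rose by 0.79 ± 0.10 and GstD1 by 0.47 ± 0.05, while GstT3 fell by 0.61 on the log2 scale (adjusted p = 2.11e-04, 4.37e-05 and 8.47e-04). All 3 were called in the same direction in both mutants. GstT1, GstD1 and GstT3 changed by 0.56, 0.32 and -0.40 in de2f1 and by 0.47, 0.20 and -0.77 in dDP discs. The de2f1 call of GstT3 was lost under 5 of 29 alternatives. Named after their values were seen, GstE6 (2.94 ± 0.62), GstE3 (1.07 ± 0.25) and GstE5 (1.00 ± 0.21) had larger rises with higher adjusted p (0.0124, 0.0203 and 0.0136). These calls were lost without wild type irradiated array 1 or 3, and those of GstE6 and GstE3 also without wild type untreated array 2 (adjusted p up to 0.114, 0.174 and 0.108, over their alternatives 2.84e-04 to 0.114, 0.00608 to 0.174 and 1.52e-06 to 0.108).

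Among exporters MRP rose in all 3 genotypes, and no gene of UDP-sugar supply was called higher. MRP, which codes for an ABC transporter of conjugates, rose by 0.82 ± 0.10 in wild type, 0.43 ± 0.09 in de2f1 and 0.67 ± 0.09 in dDP discs (limma adjusted p = 1.10e-04, 0.0148 and 2.56e-04). The de2f1 call was lost without de2f1 untreated array 2 or irradiated array 2 or 3 (adjusted p = 0.0687 to 0.0747, over its alternatives 0.00172 to 0.0747). Of 14 ABC and organic anion transporter genes 2, 1 and 3 rose in wild type, de2f1 and dDP discs, and none fell by the limma test (0, 0 and 2 lower at an unadjusted p under 0.05). Of all probe sets 2.59%, 1.37% and 4.45% were called higher. The list medians were -0.06, -0.02 and 0.03. The ABC transporter gene Mdr49 rose by 0.70 ± 0.13 in wild type and 0.49 ± 0.11 in dDP discs. The Mdr49 call was lost without wild type irradiated array 1 (0.0517) and, in dDP discs, without irradiated array 1 or 2 (0.0577 and 0.0686, over its alternatives 1.39e-04 to 0.0517 and 6.87e-04 to 0.246). Of the 8 measured genes of UDP-sugar supply none rose by the limma test (0 higher at an unadjusted p under 0.05 in each genotype), and the medians were -0.10, -0.11 and -0.18. Galt, which makes UDP-galactose, and Ugalt, a UDP-galactose transporter gene, fell in wild type discs (-0.35 ± 0.07 and -0.35 ± 0.09, adjusted p = 0.0103 and 0.0466) and Galt also in dDP discs (-0.32 ± 0.06). The wild type fall of Galt was lost without irradiated array 1 (0.147, over its alternatives 0.00104 to 0.147), and that of Ugalt without any 1 of the 5 wild type arrays (0.0822 to 0.296, over its alternatives 0.00701 to 0.296). The dDP fall of Galt was lost under 4 alternatives, with 0.291 without dDP untreated arrays 2 and 3 together (over its alternatives 2.98e-04 to 0.291). None of the 4 sulfotransferase genes passed in any genotype (limma, 1 at an unadjusted p under 0.05 in de2f1 discs). Of the 6 regulator genes 1 passed, maf-S, as lower in dDP discs (-0.22 ± 0.06, adjusted p = 0.0427). That call was lost under 20 of 29 alternatives, with 0.181 without dDP untreated array 2 (-0.15, over its alternatives 0.00138 to 0.739). The gene cnc, coding for the Nrf2 homologue that activates detoxification genes, changed by 0.08, 0.01 and 0.12 in wild type, de2f1 and dDP discs, and its inhibitor Keap1 by 0.02, -0.05 and 0.23 (adjusted p of 0.0738 to 0.991), so neither passed. The Keap1 change in dDP discs passed under 4 alternatives, among them that without dDP untreated array 1 (0.31, adjusted p = 0.00476, with a range of 0.00474 to 0.845 over all alternatives).

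Untreated dDP discs had far less Ugt301D1 signal and more Ugt35A1 and Ugt305A1 signal than wild type discs, and Ugt50B3 was lower in both mutants. In untreated dDP discs 5 of 35 genes were called higher and 6 lower than in wild type, where 12.1% and 15.9% of all probe sets were called. The family's share of 31.4% was close to the 28% of all probe sets. Compared with untreated de2f1 discs 4 were higher and 6 lower, beside 10.4% and 11.9% of all probe sets (22.3% in all). The family medians of -0.01 and -0.03 equalled those of all probe sets at this rounding. In untreated de2f1 discs 1 was higher and 2 lower than in wild type, beside 3.89% and 5.1% (8.99% in all). The 3 comparisons share arrays. In bulk discs, fewer cells of a type and less RNA per cell cannot be told apart.

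Ugt301D1 had the largest difference of the family. It read 9.50, 9.32 and 9.74 in untreated wild type, 9.22, 9.09 and 9.28 in de2f1 and 5.999, 6.22 and 5.72 in dDP discs. After irradiation it read 9.16 and 9.37, 9.10, 9.32 and 9.32 and 6.20, 6.38 and 6.44 in the same order. All 6 dDP arrays lay below all 11 others by a wide margin. The untreated difference was -3.54 ± 0.13 from wild type, or 11.6-fold lower, and -3.22 ± 0.13 from de2f1 discs (limma adjusted p = 1.53e-10 and 6.66e-10, n = 3 against 3). It was the 24th largest fall among all probe sets in each comparison. Salivary glue genes were also low in untreated dDP discs, and with their mean as a covariate the difference from wild type was -3.51 (limma adjusted p = 6.77e-08, over its alternatives 7.57e-11 to 5.85e-05). That mean was 5.29 to 6.05 on untreated dDP and 10.85 to 13.83 on untreated wild type arrays. The covariate thus coincides with genotype among these untreated arrays, but not over all arrays of the fit. The salivary gene mean was 12.79 and 13.91 on dDP irradiated arrays 2 and 3, where Ugt301D1 read 6.38 and 6.44. On dDP irradiated array 1 that mean was 5.97 and Ugt301D1 read 6.20. On de2f1 untreated array 1 the mean was 6.51 and Ugt301D1 read 9.22. The part of salivary tissue was not tested. Hemocyte marker means (8 of 8 genes measured) were 6.72 to 7.60 on dDP arrays against 8.38 to 10.04 on the others, and ring gland marker means (4 of 5) 6.58 to 8.22 against 8.65 to 9.78. The hemocyte gene NimC1 went the other way from wild type, with untreated and irradiated group means of 6.56 and 6.45 in dDP against 5.57 and 5.69. Glia marker means (3 of 3) were 9.94 to 10.19 on dDP arrays against 10.38 to 10.77, and tracheal marker means (2 of 3) 6.11 to 6.35 against 6.33 to 6.85. The tracheal difference came mainly from btl, since group means of dysf stayed at 5.47 to 5.69. Against untreated wild type discs the glia difference came mainly from repo, with group means of 7.91 in dDP and 9.18 in wild type. Those of moody were 9.68 and 9.88 and those of Gli 12.56 and 12.84 in the same order. The part of these 4 marker groups in this and the following dDP differences was not tested. The irradiation change of Ugt301D1 did not pass in any genotype (-0.26, 0.05 and 0.36 in wild type, de2f1 and dDP discs).

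Ugt35A1 and Ugt305A1 differed the other way. Ugt35A1 read 8.86, 8.81 and 8.92 in untreated dDP discs, against 6.04, 6.20 and 6.35 in wild type and 6.32, 6.08 and 7.24 in de2f1 discs. It was higher by 2.67 ± 0.27 than in wild type, or 6.36-fold, and by 2.32 ± 0.27 than in de2f1 discs (limma adjusted p = 4.94e-06 and 2.86e-05). On the same 3 untreated dDP arrays the gut enzyme mean was 11.30, 5.27 and 5.29 and the fat body mean 13.42, 7.88 and 8.23. With both dDP arrays with gut enzyme signal left out the difference from wild type was 2.67, and with the fat body mean as a covariate 2.65 (adjusted p = 1.09e-05 and 4.91e-05, over its alternatives 6.73e-07 to 6.18e-04). The fat body mean was 5.99 to 7.11 on untreated wild type arrays, below all 3 untreated dDP arrays, so this covariate is not separate from genotype there. The part of gut and fat body tissue in the Ugt35A1 difference was not tested. Ugt305A1 (synonym Tes36) read 6.12, 6.09 and 5.96 in untreated and 5.97, 6.07 and 6.16 in irradiated dDP discs. In the other 4 groups it stayed just above the floor, at 4.64 to 4.92. The difference from wild type was 1.35 ± 0.06, or 2.55-fold, and from de2f1 discs 1.25 ± 0.06 (adjusted p = 2.45e-09 and 8.55e-09).

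**Figure D4:**
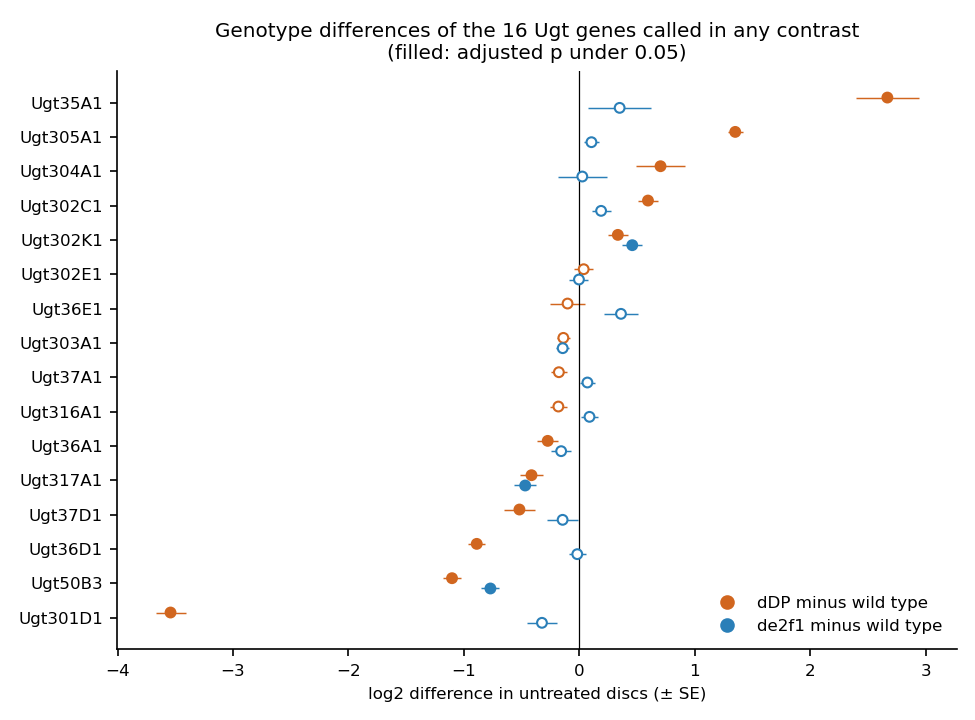
Log2 difference from wild type (± SE) in untreated dDP and de2f1 discs for the 16 Ugt genes called in any contrast, ordered by the dDP value. Filled points have an adjusted p under 0.05. Ugt301D1 (-3.54) and Ugt35A1 (2.67) lie at the ends of the dDP values, and Ugt302K1, Ugt317A1 and Ugt50B3 are filled for both mutants.

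Ugt50B3 was lower in both mutants. It read 6.07, 6.28 and 6.19 in untreated wild type discs, 5.33, 5.32 and 5.58 in de2f1 and 5.03, 5.03 and 5.17 in dDP discs, so the 3 genotypes did not overlap. The difference from wild type was -0.77 ± 0.08 in de2f1 and -1.10 ± 0.08 in dDP discs (limma adjusted p = 1.68e-05 and 1.34e-07). Between the mutants it was -0.33 ± 0.08 (adjusted p = 0.0067), a call lost with only their own arrays fitted (0.0647) and with the salivary gene mean as a covariate (0.082, over its alternatives 0.00441 to 0.082). Irradiated arrays kept this order, at 6.07 and 6.005 in wild type, 5.28, 5.14 and 5.06 in de2f1 and 5.02, 5.01 and 4.98 in dDP discs.

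Ugt302K1 and Ugt317A1 were also called in both mutants. Untreated Ugt302K1 was higher than in wild type by 0.46 ± 0.09 in de2f1 and 0.33 ± 0.09 in dDP discs (limma adjusted p = 0.00406 and 0.0108). Untreated Ugt317A1 was lower, with differences of -0.47 ± 0.10 and -0.41 ± 0.10 (adjusted p = 0.00623 and 0.00456). These contrasts and the wild type irradiation change share the untreated wild type arrays. The dDP call of Ugt302K1 was lost without dDP untreated array 3 (0.27, 0.0558) and with the salivary gene mean (0.069) or actin difference (0.0536) as a covariate or without dDP untreated arrays 2 and 3 together (0.0991, over its alternatives 0.00476 to 0.0991). Ugt302C1 was higher in dDP discs by 0.59 ± 0.08 than in wild type and 0.41 ± 0.08 than in de2f1 discs (adjusted p = 8.36e-05 and 0.00253), and its de2f1 difference from wild type did not pass (0.19, 0.21).

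**Figure D5:**
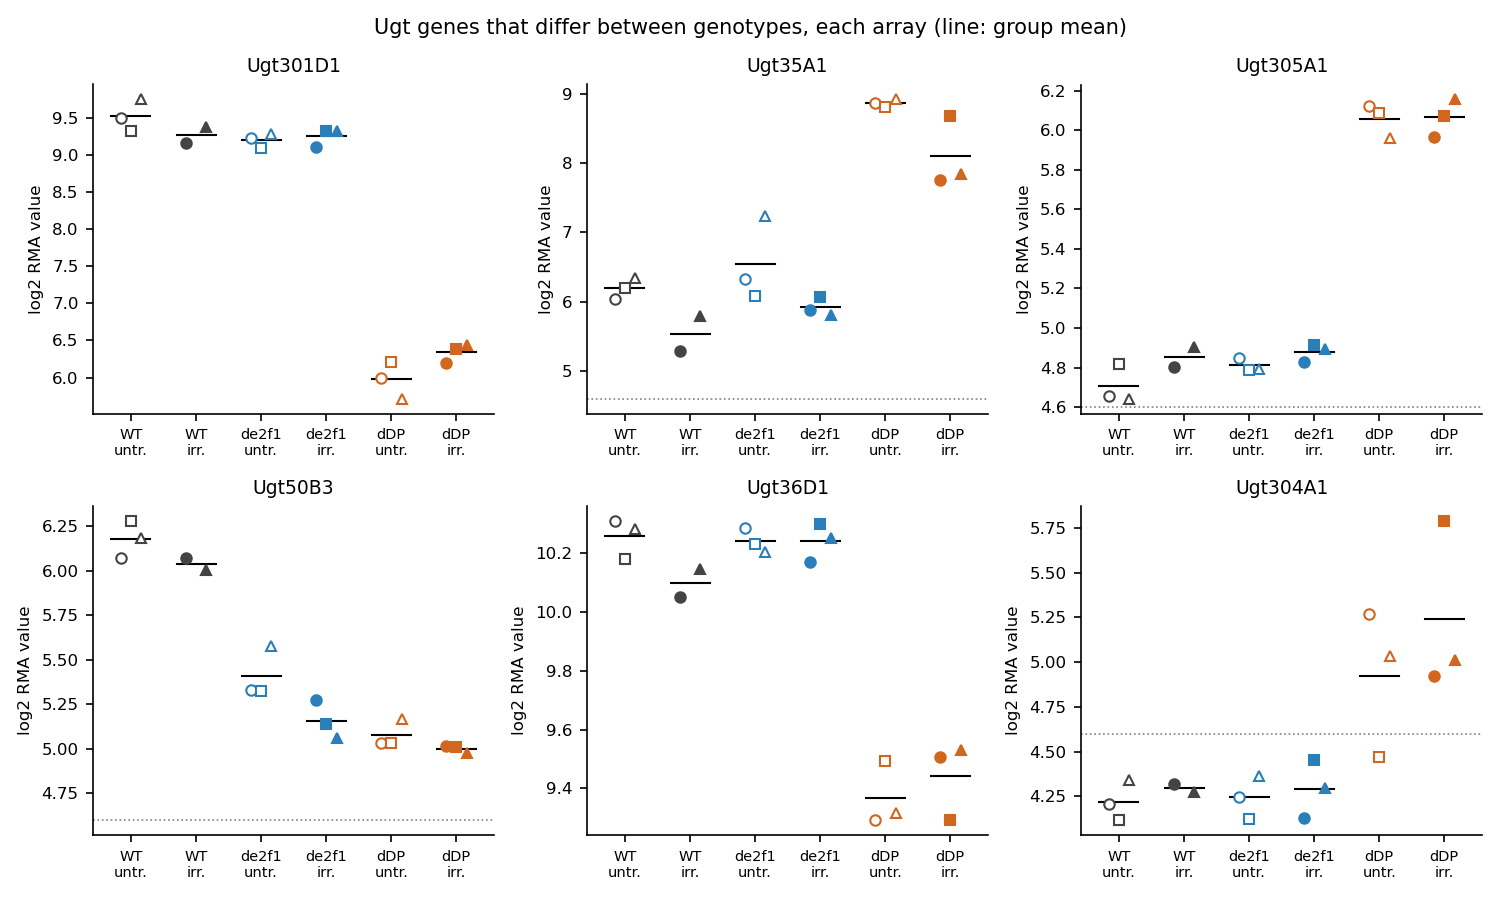
Log2 values of Ugt301D1, Ugt35A1, Ugt305A1, Ugt50B3, Ugt36D1 and Ugt304A1 on each array, by genotype (WT, wild type) and treatment. Symbols and lines are as in the plot of the Ugt302 genes, with open symbols for untreated and filled ones for irradiated arrays, lines for group means and the dotted line at log2 4.6. The dDP arrays stand apart from the other genotypes for Ugt301D1, Ugt35A1, Ugt305A1 and Ugt36D1, and the 3 genotypes are stepped for Ugt50B3.

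Ugt36D1, Ugt37D1 and Ugt36A1 were also lower in untreated dDP than in wild type discs. Ugt36D1 read 9.29, 9.49 and 9.32 in dDP against 10.31, 10.18 and 10.28 in wild type and 10.29, 10.23 and 10.20 in de2f1 discs, with differences of -0.89 ± 0.07 and -0.87 ± 0.07 (limma adjusted p = 5.56e-07 and 1.13e-06). Its cluster neighbours Ugt36F1 and Ugt36E1 did not pass against wild type (0.08 and -0.10, limma adjusted p = 0.62 and 0.684). Group means of Ugt36F1 were just above the floor, at 4.62 to 4.76, where a fall could hardly be seen. Ugt37D1 read 6.18, 6.21 and 6.06 in dDP and 6.54, 6.73 and 6.74 in wild type discs, a difference of -0.52 ± 0.13 (adjusted p = 0.00822). Ugt36A1, also known as Dorothy from a driver line active in the larval blood-forming organ, read 7.68, 8.01 and 7.98 against 8.23, 8.10 and 8.16 (-0.27 ± 0.09, adjusted p = 0.0334). The Ugt36A1 value shrank to -0.17 without dDP untreated array 1 (adjusted p = 0.125) and missed the threshold without wild type untreated array 1 or 3 (0.113 and 0.0724, over its alternatives 0.00479 to 0.173). The Ugt37D1 call was lost with the salivary gene mean or the actin difference as a covariate (0.0546 and 0.0783) and without dDP untreated arrays 2 and 3 together (0.103, over its alternatives 7.17e-04 to 0.103).

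Ugt304A1 had group means above the floor in dDP discs alone, and its highest arrays were those with gut enzyme signal. It read 5.27, 4.47 and 5.04 in untreated and 4.92, 5.79 and 5.01 in irradiated dDP discs, with array 1 of the first and array 2 of the second at the top. All 11 arrays of the other genotypes lay at 4.12 to 4.45, below the floor and just below the lowest dDP array. The untreated difference was 0.70 ± 0.21 from wild type and 0.68 ± 0.21 from de2f1 discs, both lower bounds (limma adjusted p = 0.0231 and 0.0342). Leaving out both dDP arrays with gut enzyme signal gave 0.53 and 0.51 (adjusted p = 0.0134 and 0.0206). Without untreated array 1 alone it was 0.53 and 0.51 and did not pass (0.0894 and 0.12). Against wild type it also missed without dDP untreated array 3 or wild type untreated array 1 or 2 (0.0591 to 0.0767, over its alternatives 0.00408 to 0.0913). Against de2f1 it missed without dDP untreated array 3 or any 1 of the 3 de2f1 untreated arrays (0.0516 to 0.104, over its alternatives 0.0065 to 0.12). The part of gut tissue in the Ugt304A1 difference was not tested.

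Against de2f1 discs 3 more members were called lower in untreated dDP discs, each by a small amount. Ugt36E1 read 5.30, 5.46 and 5.47 in dDP and 5.76, 5.69 and 6.16 in de2f1 discs (-0.46 ± 0.15, limma adjusted p = 0.0381). Ugt316A1 read 10.85, 10.62 and 10.56 against 10.99, 10.89 and 10.96 (-0.27 ± 0.08, adjusted p = 0.0193), and Ugt37A1 4.595, 4.70 and 4.67 against 4.97, 4.78 and 4.96 (-0.25 ± 0.07, adjusted p = 0.0158). None of the 3 passed against wild type. All 3 calls were lost without de2f1 untreated array 1 or 3 (Ugt36E1 0.0546 and 0.164, Ugt316A1 0.0716 and 0.0549, Ugt37A1 0.0733 and 0.0637). The Ugt36E1 call was also lost without any 1 untreated dDP array (0.0643 to 0.0995) or wild type irradiated array 1 or 3 (0.0501), and that of Ugt316A1 without dDP untreated array 2 or 3 (0.0716 and 0.0888). Without dDP untreated arrays 2 and 3 together, those with the larger actin differences, the Ugt316A1 difference was -0.10 (adjusted p = 0.504, over its alternatives 8.63e-04 to 0.504, with 0.0194 to 0.252 for Ugt36E1 and 0.00587 to 0.0891 for Ugt37A1).

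In the Ugt clusters named here, some members passed between untreated dDP and wild type discs and others did not. In the cluster on 3R, untreated dDP discs had higher Ugt302K1, Ugt302C1, Ugt35A1 and Ugt304A1 than wild type, and the other 6 members did not pass. Of these 6, all but Ugt302E1 and Ugt35C1 were below the floor in every group. Those 2 had group means close to it, at 4.58 to 5.03 and 4.45 to 4.74. Calls missing so near the floor cannot show whether the cluster shares a pattern. In the cluster of Ugt36F1, Ugt36D1 and Ugt36E1 on arm 2L, 1 of 3 passed, and in that of Ugt37C2, Ugt37E1 and Ugt37D1 on the same arm, 1 of 3. Of all probe sets 28% were called in this contrast, 12.1% higher and 15.9% lower, so 1 of 3 is close to that share.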

How the data were processed

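RNA (50 ng per sample) from 17 eye disc samples was hybridised to the Affymetrix array, per the labels. The authors deposited 1 log2 value per probe set and array, for which the submitters' processing notes name RMA without a version. No further scaling was applied. Of 18952 probe sets 183 controls were left out. Of the 18769 tested, 13647 carry 1 gene symbol in GEO's platform annotation, 402 several and 4720 none.

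limma 3.58.1 (R 4.3.3) fitted the 6 group means jointly to every tested probe set over the 17 arrays, with untrended eBayes. P values were adjusted by Benjamini-Hochberg within each contrast across the 18769 probe sets, and those under 0.05 count as calls. Errors are standard errors from that fit. Intervals are at 95% and not adjusted. The fit was run on simulated data with independent normal noise and known shifts. That checks the code only, since the simulation held no tissue or array effects. Figures used Python 3.11.15 and matplotlib 3.10.9. Arrays were labelled as biological replicates, and their number limits the precision.

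The members and gene lists were chosen with earlier results of these data known. Members called in any of 9 contrasts were named, others summarised. From other lists at most 3 called genes per irradiation contrast, those with the smallest adjusted p, were named, and cnc and Keap1. Numbers were not treated as pairs in the main fit. Deviations of same-numbered untreated and irradiated arrays correlated at -0.40 to 0.38, which with 2 or 3 arrays per group cannot exclude pairing. Covariates and joint removals of arrays were added after the values were seen. No sequences were used here.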

Additional observations from a re-analysis of the deposited data

Results flagged for a closer look

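The irradiation change of 2 genes differed between genotypes by the test of the difference itself. For Ugt302K1 the change in de2f1 discs minus that in wild type discs was -0.85 (limma adjusted p = 0.0396), from mean rises of 1.31 and 2.16. All 3 irradiated de2f1 and both irradiated wild type arrays lay above the untreated arrays of their genotype. The call was lost under 16 of 29 alternatives. For Ugt303A1 the same difference was -0.57 (limma adjusted p = 0.0223), from changes of -0.15 and 0.42, with every group mean below log2 4.6. Its call was lost under 11 of the 28 alternatives that measured it.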

How the results depend on the processing

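Of the 37 calls of a family member in a contrast, 22 passed under each alternative that measured the gene and 25 with each single array left out, and no called value changed sign under any of the 29 alternatives. As fitted, 4 members were called for irradiation in wild type, 3 in de2f1 and 4 in dDP discs, 11 for untreated dDP and 3 for untreated de2f1 against wild type and 10 for dDP against de2f1 discs. Leaving out 1 array at a time gave 3 to 4, 2 to 3, 3 to 5, 9 to 12, 3 to 3 and 6 to 10 members in that order. It gave 0 to 1, 0 to 2 and 0 to 0 members for the difference in irradiation change of dDP from wild type, of de2f1 from wild type and of dDP from de2f1 (0, 2 and 0 as fitted). For irradiation in dDP discs 2 members passed with the actin difference as a covariate and 2 without dDP untreated arrays 2 and 3 together, both chosen after seeing the data. For de2f1 against wild type array weights gave 5, and for dDP against de2f1 the arrays of the contrast alone gave 5. For the dDP minus wild type difference in irradiation change 1 member passed with a mean-variance trend, with array weights, with quantile normalization, with 1 probe set per gene and, added after seeing the data, without both dDP arrays with gut enzyme signal. For the de2f1 minus wild type difference 1 passed without the 40% dimmest probe sets and with the salivary or the fat body mean as a covariate, and 0 with the arrays of the contrast alone or without dDP untreated arrays 2 and 3 together (these covariates and the joint removal were added after seeing the data). For the dDP minus de2f1 difference array weights gave 3. The replicate number as a replicate block gave 0 members for the de2f1 minus wild type difference, with adjusted p = 0.0755 for Ugt302K1 and 0.0684 for Ugt303A1, and ended the call of Ugt304A1 between dDP and de2f1 discs (0.0581). It ended no other family call. Same-numbered arrays correlated at 0.08 and 0.38 in wild type, -0.29, 0.01 and 0.10 in de2f1, and -0.34, -0.40 and 0.05 in dDP discs. These are deviations from means of 2 or 3 arrays, so they cannot settle whether the numbers pair the samples. Over the alternatives the calls among P450 genes ran from 4 to 10, 3 to 7 and 3 to 18 in wild type, de2f1 and dDP discs (7, 5 and 11 as fitted) and those among glutathione transferase genes from 3 to 8, 2 to 7 and 2 to 12 (6, 3 and 11 as fitted). The cause of these shifts was not tested. Signals near the floor limit what can be seen in the 13 members below log2 4.6.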
